A study of Rattus norvegicus with 6 samples.

Results

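The genes described here encode the collagen chains and a set of other structural proteins of the extracellular matrix, measured in whole ovaries of lean and overfed rats. They were chosen by a rule on names, set with earlier results of these data known. It took every gene whose symbol has the form of a collagen chain. Added to these were the small leucine-rich proteoglycans Dcn, Lum, Bgn and Fmod, the glycoproteins Fn1, Sparc and Postn, and the elastic fibre genes Eln and Fbn1. The rule found 50 genes, 41 collagen chains and 9 others, among 14217 named genes, and 70 probe sets among 31042. Of these genes 33 were read by 1 probe set and 17 by several, which were averaged. The collagen genes Col4a3, Col6a4, Col21a1 and Col28a1 were not among the named genes and were not analysed here.

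Collagens are assembled from chains that wind into a triple helix. Types I, III and V build the fibrils of connective tissue, type IV the meshwork of basement membranes and type VI a beaded microfibril that surrounds cells. Small proteoglycans such as decorin bind fibrils and control their spacing, while fibronectin forms the scaffold on which new fibrils are laid down. In the ovary this matrix makes up the stroma, the tunica under the surface epithelium, the theca around follicles and the vessel walls, and it is broken down and rebuilt at each ovulation.

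RNA came from ovaries of female rats, pooled before hybridization into 3 lean and 3 overfed pools, with 1 array for each pool. Both groups were fed by total enteral nutrition, a liquid diet given by tube, over 28 days. Lean rats received 155 and overfed rats 220 kcal for each kg of metabolic weight. All were mated with lean males, and ovaries were taken at day 4.5 post coitum. The labels give no strain, age or number of animals in a pool. With 1 array for each pool, p-values rest on the spread between pools and not between animals. Each deposited value is the log2 signal of a probe set minus its median over the 6 arrays: it gives differences between pools but no level, so genes cannot be ranked by abundance and the presence of ovarian marker genes cannot be checked by level. The spread of the arrays over all probe sets ran from an SD of 0.14 to 0.29, with the highest in overfed pool 1.

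Promoter sequence is shown for members grouped by the pools in which they were highest and lowest, because a shared pattern raises the question of shared upstream sequence. Shared extremes do not mean that values agreed in the other pools. In lean pool 3, for example, Col6a1 was at 0.63 and Col6a6 at -0.33. RefSeq (rat build GRCr8) held a promoter entry for 37 of the 50 members. The 150 bases before each gene's start are printed 5′ to 3′ on the gene's own strand, in lower case with motif matches in capitals. The start is that of the RefSeq entry. Whether transcription begins there was not checked, so a printed stretch may hold transcribed bases. The motifs searched in the 250 bases before each start were the GC box GGGCGG, then CCAAT and TATAAA, the Egr motif GCGTGGGCG or GCGGGGGCG, and the CArG box. Both strands were searched, so the reverse complement of a motif is in capitals too. The Egr motif was included because the series names Egr-1 as its subject, and it can overlap a GC box. The first 5 sequences belong to genes that were highest in overfed pool 1 and lowest in lean pool 2: Col1a2 (chr4:33518407-33518556, plus strand), Col5a2 (chr9:55090152-55090301, minus strand), Col6a1 (chr20:11905540-11905689, plus strand), Col6a3 (chr9:98886959-98887108, minus strand) and Col6a6 (chr8:115352162-115352311, minus strand).
Col1a2: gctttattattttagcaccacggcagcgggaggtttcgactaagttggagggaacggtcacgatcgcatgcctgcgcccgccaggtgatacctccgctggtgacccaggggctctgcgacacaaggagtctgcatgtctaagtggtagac
Col5a2: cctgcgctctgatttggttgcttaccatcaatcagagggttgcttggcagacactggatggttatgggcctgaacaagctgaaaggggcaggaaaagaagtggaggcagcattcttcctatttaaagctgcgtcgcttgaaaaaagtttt
Col6a1: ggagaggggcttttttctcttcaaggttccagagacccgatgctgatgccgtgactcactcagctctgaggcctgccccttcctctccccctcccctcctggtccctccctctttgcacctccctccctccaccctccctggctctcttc
Col6a3: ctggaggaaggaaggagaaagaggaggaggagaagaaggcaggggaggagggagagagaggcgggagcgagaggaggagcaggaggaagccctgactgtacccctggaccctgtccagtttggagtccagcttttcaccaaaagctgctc
Col6a6: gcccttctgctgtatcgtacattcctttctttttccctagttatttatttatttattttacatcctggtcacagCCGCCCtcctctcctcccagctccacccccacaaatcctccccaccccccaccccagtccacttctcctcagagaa

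Among these 5 printed stretches only that of Col6a6 held a match to a searched motif, a GC box 76 bases before the start. The searched window reached further from the start than the printed bases. In its part that is not printed, Col1a2 held matches to CCAAT and to TATAAA. The next 4 sequences belong to genes with another pattern, highest in overfed pool 3 and lowest in overfed pool 1: Col8a1 (chr11:56246632-56246781, plus strand), Col8a2 (chr5:143870619-143870768, plus strand), Col9a1 (chr9:34081214-34081363, plus strand) and, with its lowest value in lean pool 3, Col11a1 (chr2:204508986-204509135, plus strand).
Col8a1: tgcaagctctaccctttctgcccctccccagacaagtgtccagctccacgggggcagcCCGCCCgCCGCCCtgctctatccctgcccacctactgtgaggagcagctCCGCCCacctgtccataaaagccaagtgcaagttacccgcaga
Col8a2: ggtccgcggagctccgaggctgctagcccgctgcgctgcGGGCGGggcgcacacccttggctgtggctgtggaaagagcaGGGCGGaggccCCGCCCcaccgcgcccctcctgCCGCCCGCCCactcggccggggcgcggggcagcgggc
Col9a1: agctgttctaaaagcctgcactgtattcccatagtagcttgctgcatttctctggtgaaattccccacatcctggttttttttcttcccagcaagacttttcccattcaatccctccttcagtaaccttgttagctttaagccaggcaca
Col11a1: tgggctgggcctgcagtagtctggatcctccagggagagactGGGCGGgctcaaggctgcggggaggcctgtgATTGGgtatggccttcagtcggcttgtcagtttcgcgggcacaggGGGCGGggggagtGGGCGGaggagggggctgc

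The stretches of Col8a1, Col8a2 and Col11a1 held several GC boxes, and that of Col9a1 held no match to a searched motif. Over whole groups the GC box was present in 6 of the 13 promoters available for the first group, in 3 of the 4 available for the second and in 10 of the 20 available for the other members. Of all 37 member promoters 19 held it (51.4%, against 32.4% of 27457 RefSeq promoters of the same length). CCAAT was present in 11 (29.7%, against 34.3%), TATAAA in 5 (13.5%, against 13.1%) and the CArG box in 0 (0%, against 1.5%). The Egr motif was present in 3 (8.11%, against 2.94%), those of Col5a3 (chr8:27625949-27626098, minus strand), Col11a2 (chr20:4817649-4817798, minus strand) and Col26a1 (chr12:25429246-25429395, plus strand), which are printed because they carry it. A match is a description of the letters and not a bound site.
Col5a3: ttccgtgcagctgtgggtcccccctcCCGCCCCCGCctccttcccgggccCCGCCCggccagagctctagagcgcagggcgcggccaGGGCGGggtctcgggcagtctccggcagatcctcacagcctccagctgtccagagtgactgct
Col11a2: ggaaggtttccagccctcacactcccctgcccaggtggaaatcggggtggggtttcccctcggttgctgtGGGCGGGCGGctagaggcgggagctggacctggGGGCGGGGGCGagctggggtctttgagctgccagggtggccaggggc
Col26a1: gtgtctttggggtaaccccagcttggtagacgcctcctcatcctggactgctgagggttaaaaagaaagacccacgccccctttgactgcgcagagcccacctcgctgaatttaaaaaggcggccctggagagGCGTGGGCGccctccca

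Col4a1 and Col4a2, which encode the chains of the common type IV collagen, lie head to head on chromosome 16 with their starts 77 bases apart. The 76 bases between them (chr16:84885521-84885596, plus strand, GRCr8) hold 1 GC box and are printed whole because both genes share them.
Col4a1-Col4a2: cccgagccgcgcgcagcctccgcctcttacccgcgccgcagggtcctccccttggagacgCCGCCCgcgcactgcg

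No collagen or matrix gene passed the threshold between the diets. None of the 50 members, and none of the 14217 genes, had an adjusted p under 0.05 in limma's moderated test (0% of all genes). At an unadjusted p under 0.05 there was 1 member, Col6a6, against 7.18% of all genes, and it was also the only member whose lean and overfed pools did not overlap, against 13.4% of all genes. Overfed means were higher for 31 members and lower for 19 (62% higher, against 52.6% of all genes), and the median difference was +0.088 on the log2 scale, against +0.008 over all genes. That median rested on single pools: leaving out lean pool 2 gave -0.039 with 23 members higher, leaving out overfed pool 1 gave -0.054 with 22 higher, and leaving out lean pool 3 gave 0.203 with 35 higher. Quantile normalization gave 26 higher members and a median of 0.027. Because whole ovaries were used, fewer cells of a type and less RNA per cell cannot be told apart.

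**Figure D1:**
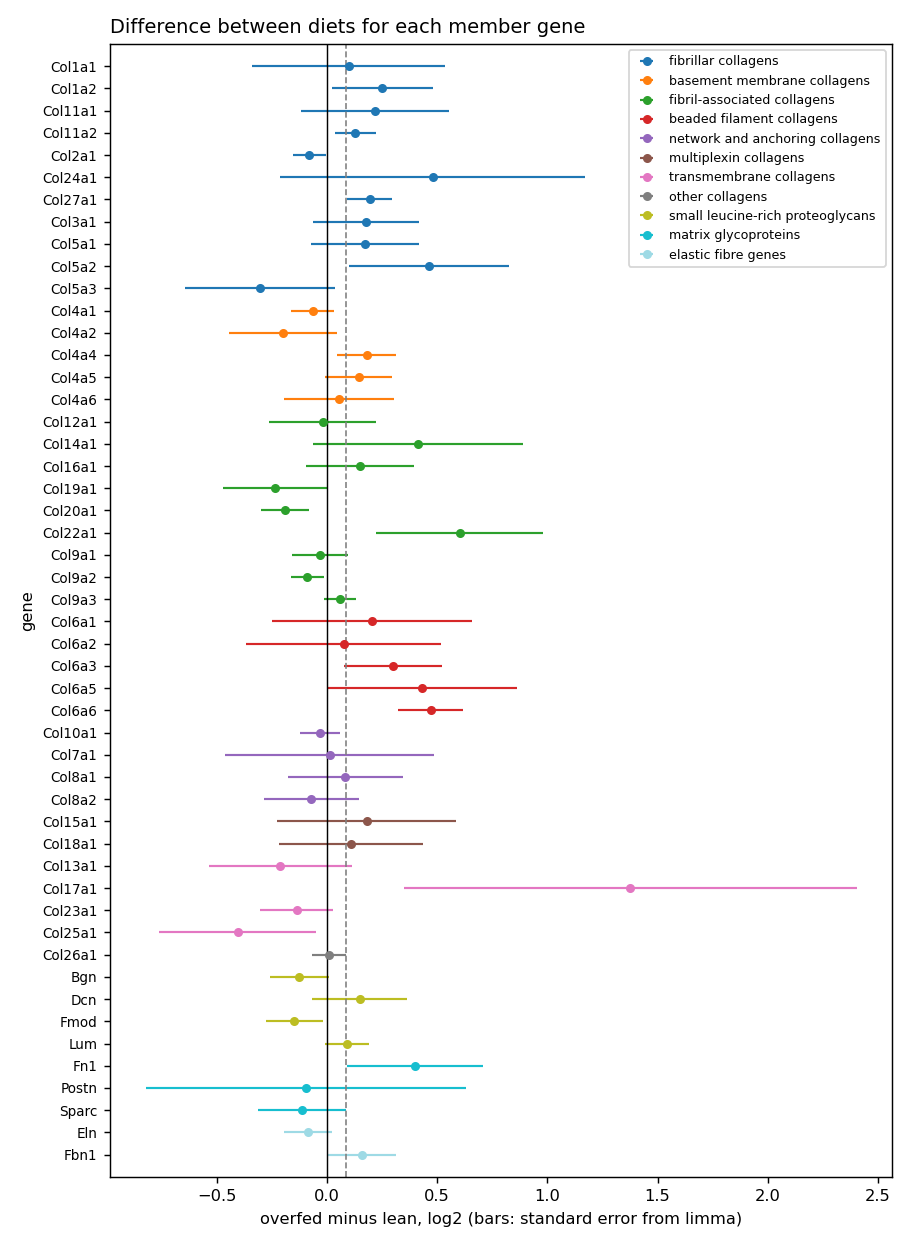
Difference between overfed and lean means (horizontal axis, log2) for each of the 50 genes (vertical axis), coloured by class, with the standard error from limma as bars and a dashed line at the median of +0.088. The points of Col6a6 and of several other members, such as Col27a1 and Col22a1, are clear of 0 by more than their bars. Col17a1 at +1.38 is clear of 0 too and has the widest bar.

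The pools themselves differed widely in matrix expression, within each diet. The median within-group SD of the members was 0.365, against 0.128 over all genes, and 31 of 50 members (62%) lay above 0.296, the 90th percentile of all genes. A range of over 1 on the log2 scale between the highest and lowest pool was found in 20 members (40%), against 6.42% of all genes. The difference between diets was larger than the within-group SD in 7 members, against 32.9% of all genes.

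Much of this spread had a common pattern. Overfed pool 1 was the highest pool for 25 members (50%, against 19.2% of all genes), and lean pool 2 was the lowest for 25 (50%, against 13.5%). Both held for 21 members (42%, against 5.35%): Col1a1, Col1a2, Col3a1, Col4a5, Col4a6, Col5a1, Col5a2, Col6a1, Col6a2, Col6a3, Col6a5, Col6a6, Col12a1, Col14a1, Col15a1, Col16a1, Col17a1, Col22a1, Col24a1, Dcn and Fn1. Another pattern, highest in overfed pool 3 and lowest in overfed pool 1 or lean pool 3, was shown by 4 members (8%, against 11.9% of all genes), Col8a1, Col8a2, Col9a1 and Col11a1. These groups were formed from the values and carry no test. They rest on gene averages: for Col1a1, Col4a6, Col5a1, Col6a2, Col6a3 and Col12a1 a single probe set had another highest or lowest pool.

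**Figure D2:**
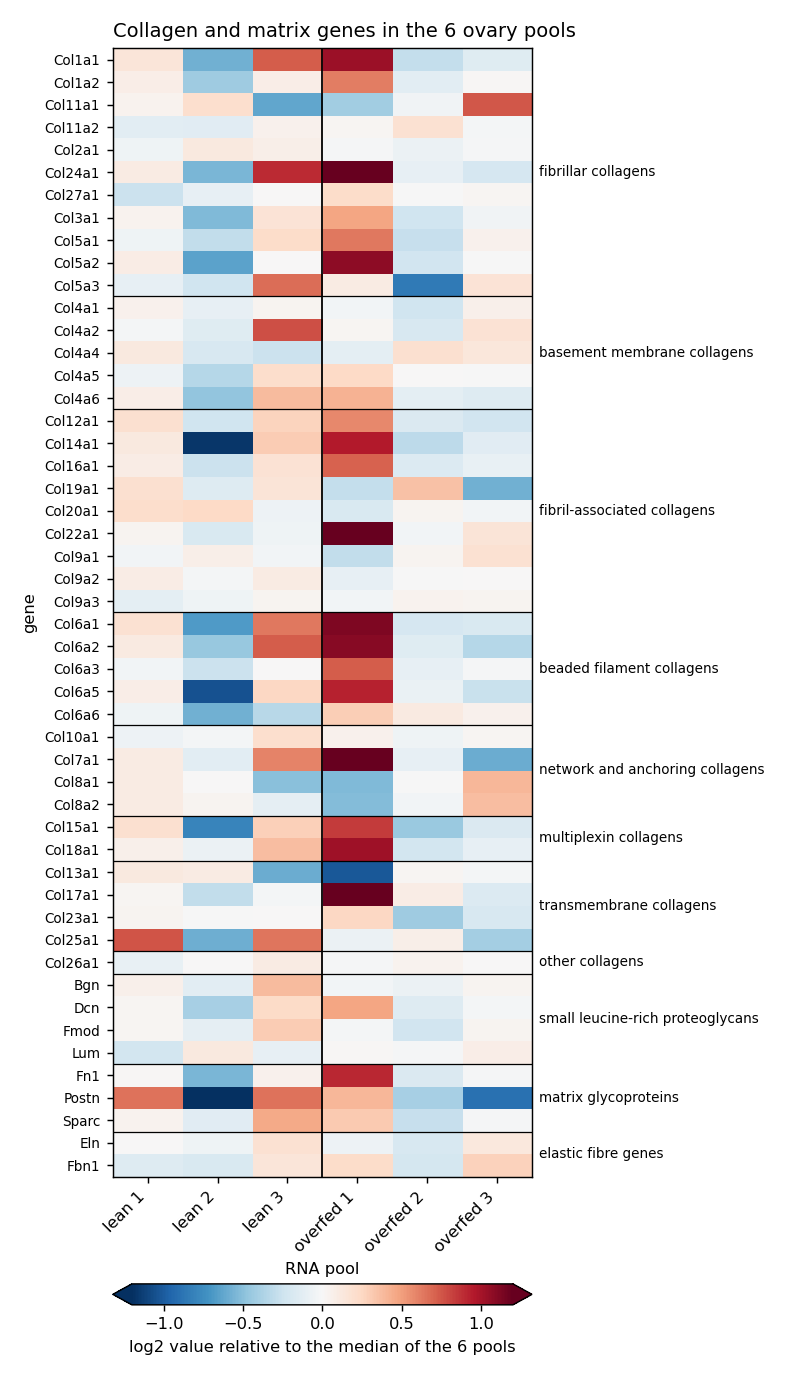
Relative log2 value (colour, limited to the range from -1.2 to 1.2) of the 50 genes (rows, grouped by class) in the 3 lean and 3 overfed pools (columns). The column of overfed pool 1 is mostly red and that of lean pool 2 mostly blue across the fibrillar and beaded filament classes, and the rows of Col8a1, Col8a2 and Col11a1 are red in overfed pool 3 and blue in overfed pool 1 and lean pool 3.

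Of the 11 fibrillar collagens 9 had a higher mean in overfed ovaries, with a median difference of +0.176, which turned to -0.0283 when overfed pool 1 was left out and was 0.082 when lean pool 2 was, and 0.307 when lean pool 3 was. Col1a1, a chain of type I collagen, was at 0.15, -0.58 and 0.72 in lean pools 1 to 3 and at 1.02, -0.29 and -0.15 in overfed pools 1 to 3. Its partner Col1a2 was at 0.08, -0.43 and 0.08 in the lean and at 0.61, -0.13 and 0.01 in the overfed pools. Col3a1, the chain of type III collagen, was at 0.04, -0.53 and 0.16 in the lean and at 0.47, -0.24 and -0.04 in the overfed pools. In each of these genes overfed pool 1 stood above every lean pool while overfed pool 2 stood below lean pools 1 and 3, so the groups overlapped. For Col1a1 the first part holds for the average of its 2 probe sets. In 1 of them lean pool 3 (1.105) was above overfed pool 1 (1.009). The mean difference was +0.10 (SE 0.44, adjusted p = 0.979) for Col1a1, which was negative under several alternatives including quantile normalization (-0.0548). It was +0.25 (SE 0.23, adjusted p = 0.873) for Col1a2, and 0.0266 without overfed pool 1. For Col3a1 it was +0.18 (SE 0.24, adjusted p = 0.929).

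The lowest unadjusted p among fibrillar genes belonged to minor members. Col27a1, a fibrillar chain of cartilage and developing tissues, was at -0.26, -0.10 and 0.0088 in the lean and at 0.22, -0.0088 and 0.02 in the overfed pools (+0.19, SE 0.10, adjusted p = 0.781). Col11a2, which with Col11a1 makes type XI collagen, was at -0.13, -0.13 and 0.05 in the lean and at 0.03, 0.18 and -0.03 in the overfed pools (+0.13, SE 0.09, adjusted p = 0.826). Both had 1 lean pool within the overfed range. Type V collagen nucleates fibrils and sets their width: its chain Col5a2 ranged over 1.71 between pools, from -0.64 in lean pool 2 to 1.07 in overfed pool 1 (+0.46, SE 0.36, adjusted p = 0.849, and 0.0686 without overfed pool 1), and Col5a1 over 0.927 (+0.17, SE 0.24). Col5a3 was lowest in overfed pool 2, at -0.85 (-0.30, SE 0.34). Col24a1 ranged from -0.55 in lean pool 2 to 2.19 in overfed pool 1 (+0.48, SE 0.69). The cartilage collagen Col2a1 differed by -0.08 (SE 0.07).

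Col11a1 did not move with its partner chain. It was at 0.04, 0.20 and -0.62 in the lean and at -0.42, -0.04 and 0.74 in the overfed pools, a difference of +0.22 (SE 0.34, adjusted p = 0.937). Its overfed pool 1, the pool in which Col1a1 was highest, was below lean pools 1 and 2. The gap between Col11a1 and Col11a2 reached 0.77 in overfed pool 3.

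All 5 beaded filament genes had higher means in overfed ovaries, with a median difference of +0.30, and this was +0.031 without lean pool 2 and +0.037 without overfed pool 1. The class had the widest spread, with a median within-group SD of 0.67. Col6a6, an alternative partner to the chain encoded by Col6a3, was at -0.05, -0.58 and -0.33 in the lean pools (mean -0.32 ± 0.27, SD, n = 3) and at 0.30, 0.11 and 0.05 in the overfed pools (mean 0.15 ± 0.13, SD, n = 3). Every overfed pool was above every lean pool, by 1.39-fold in the mean (+0.47, SE 0.15, adjusted p = 0.589). The difference kept its direction in all 14 alternatives, from 0.341 without lean pool 2 to 0.607 without lean pool 1, and the unadjusted p was under 0.05 in 13 of them. An exact permutation test of 3 against 3 pools cannot give a p below 0.1.

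The other type VI chains followed the common pattern in their gene averages. Col6a1 was at 0.18, -0.68 and 0.63 in the lean and at 1.12, -0.20 and -0.18 in the overfed pools (+0.20, SE 0.46, adjusted p = 0.959). Col6a3 was at -0.03, -0.26 and 0.0059 in the lean and at 0.73, -0.10 and -0.02 in the overfed pools (+0.30, SE 0.22, adjusted p = 0.84). For both, a single overfed pool was above all lean pools, and without it the difference was -0.233 for Col6a1 and 0.0374 for Col6a3. The Col6a3 values are averages of 2 probe sets. In 1 of them lean pool 1 was the lowest (-0.07), and overfed pools 1 and 2 (0.64 and 0.11) were above all lean pools. The average of the 2 Col6a2 probe sets followed Col6a1 to within 0.225 in every pool (+0.08, SE 0.44). In lean pool 3 this closeness came from the average, since the Col6a2 probe sets were at 1.29 and 0.16 there and Col6a1 at 0.63. Col6a5 ran from -1.04 in lean pool 2 to 0.93 in overfed pool 1 (+0.43, SE 0.43).

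**Figure D3:**
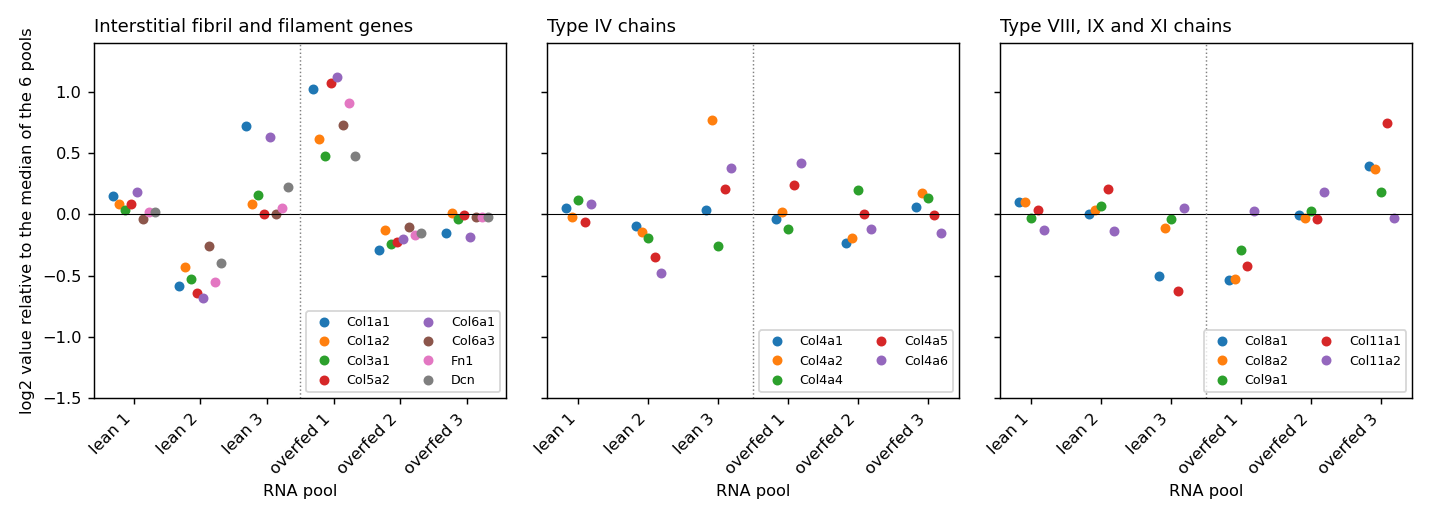
Relative log2 value (vertical axis) of genes of 3 kinds in each RNA pool (horizontal axis), 1 point for each gene and pool, with a dotted line between lean and overfed pools. Interstitial fibril and filament genes peak in overfed pool 1 and dip in lean pool 2, type IV chains spread less, and Col8a1, Col8a2 and Col11a1 are low in overfed pool 1 and high in overfed pool 3.

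The 5 basement membrane chains moved less, and none had a range over 1. Col4a1 was at 0.05, -0.10 and 0.03 in the lean and at -0.03, -0.23 and 0.06 in the overfed pools (-0.06, SE 0.10, adjusted p = 0.937). Col4a2 was at -0.02, -0.14 and 0.77 in the lean and at 0.02, -0.19 and 0.18 in the overfed pools (-0.20, SE 0.24, adjusted p = 0.921). The pair differed by a median of 0.066 over the pools but by 0.74 in lean pool 3, where Col4a2 alone was high, and without that pool the difference of Col4a2 was positive (0.0848). Col4a4, a chain of specialised basement membranes such as that of the kidney filter, was at 0.12, -0.19 and -0.26 in the lean and at -0.12, 0.20 and 0.14 in the overfed pools (+0.18, SE 0.13, adjusted p = 0.837). Col4a5 was at -0.06, -0.34 and 0.21 in the lean and at 0.24, 0.0038 and -0.0038 in the overfed pools (+0.15, SE 0.15, adjusted p = 0.894). Its neighbour Col4a6, whose start lies 1415 bases away on the opposite strand, had the same highest and lowest pools in the average of its 2 probe sets (+0.05, SE 0.25). In 1 of these probe sets lean pool 3 (0.61) was above overfed pool 1 (0.37).

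Fibril-associated collagens, which sit on the surface of fibrils, had 4 higher and 5 lower means. Col22a1, found at tissue junctions such as that of muscle and tendon, was at 0.04, -0.18 and -0.05 in the lean and at 1.49, -0.04 and 0.16 in the overfed pools (+0.60, SE 0.38, adjusted p = 0.815). A single pool carried it, since the difference was 0.127 without overfed pool 1. Col20a1 was at 0.21, 0.24 and -0.06 in the lean and at -0.18, 0.03 and -0.03 in the overfed pools (-0.19, SE 0.11, adjusted p = 0.796). Its 2 highest values were lean, with the third lean pool inside the overfed range. Col14a1, which binds decorin on fibrils, ran from -1.17 in lean pool 2 to 0.95 in overfed pool 1 (+0.41, SE 0.48). Col12a1 (-0.02, SE 0.24) and Col16a1 (+0.15, SE 0.25) had the same highest and lowest pools. Col19a1 was lowest in overfed pool 3, at -0.58 (-0.23, SE 0.24), and the type IX chains Col9a1, Col9a2 and Col9a3 differed by -0.03, -0.09 and +0.06.

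Among network and anchoring collagens the type VIII chains, which form hexagonal lattices in vessel walls and the cornea, followed each other and not the common pattern. Col8a1 was at 0.10, 0.0073 and -0.50 in the lean and at -0.53, -0.0073 and 0.39 in the overfed pools (+0.08, SE 0.26). Col8a2 was at 0.10, 0.03 and -0.11 in the lean and at -0.52, -0.03 and 0.37 in the overfed pools (-0.07, SE 0.21, adjusted p = 0.966). The median gap between them was 0.025, with the widest, 0.40, in lean pool 3. Col10a1, the collagen of hypertrophic cartilage, stayed within 0.261 over all pools, at -0.06, -0.02 and 0.20 in the lean and 0.05, -0.05 and 0.02 in the overfed pools (-0.03, SE 0.09, adjusted p = 0.964). Col7a1, which forms the anchoring fibrils below epithelia, ran from -0.59 in overfed pool 3 to 1.30 in overfed pool 1 (+0.01, SE 0.47).

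The multiplexins Col15a1 and Col18a1 lie in basement membrane zones, and the end of the second is released as endostatin. Col15a1 was at 0.19, -0.79 and 0.29 in the lean and at 0.84, -0.45 and -0.17 in the overfed pools (+0.18, SE 0.41, adjusted p = 0.959). Col18a1 was at 0.06, -0.07 and 0.37 in the lean and at 1.01, -0.22 and -0.10 in the overfed pools (+0.11, SE 0.33, adjusted p = 0.964). Overfed pool 1 was the highest and the other overfed pools were below lean pools 1 and 3 in both. Their differences were -0.0104 and -0.0174 with quantile normalization.

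Col17a1, the transmembrane collagen of hemidesmosomes, had the largest positive difference of all 14217 genes, and it came from 1 pool. It was at 0.02, -0.29 and -0.02 in the lean and at 3.91, 0.09 and -0.16 in the overfed pools (+1.38, SE 1.03, adjusted p = 0.84). Its value in overfed pool 1 was the highest of all genes in that pool, an 18.4-fold range over the 6 pools from 1 probe set, and the difference without overfed pool 1 was 0.0608. Among 9 hemidesmosome and basal keratinocyte genes, a list made after the values were seen, the values in overfed pool 1 ran from -0.19 for Cd151 to 0.52 for Lamb3, with Itgb4 at 0.25, Lama3 at 0.22, Krt5 at -0.03 and Krt14 at -0.0045. Lama3 alone of the 9 had its highest value in that pool. Col25a1 was at 0.75, -0.59 and 0.64 in the lean and at -0.07, 0.07 and -0.41 in the overfed pools (-0.40, SE 0.35, adjusted p = 0.869). It had the lowest adjusted p of any member in any alternative, 0.324 without lean pool 2 (-0.83). Col13a1 was lowest in overfed pool 1, at -1.01 (-0.21, SE 0.33), and Col23a1 differed by -0.14 (SE 0.16). Col26a1, a short collagen first described from testis and ovary, was at -0.09, 0 and 0.10 in the lean and at -0.01, 0.05 and 0 in the overfed pools (+0.008, SE 0.08, adjusted p = 0.99).

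The small leucine-rich proteoglycans did not act as a group, with 2 higher and 2 lower means. Dcn, which encodes decorin, was at 0.02, -0.40 and 0.23 in the lean and at 0.48, -0.15 and -0.02 in the overfed pools (+0.15, SE 0.21, adjusted p = 0.932). Bgn, which encodes biglycan, was at 0.06, -0.13 and 0.38 in the lean and at -0.03, -0.07 and 0.03 in the overfed pools (-0.12, SE 0.13, adjusted p = 0.9). Dcn had the common pattern and Bgn was highest in lean pool 3 instead. Fmod, for fibromodulin, was at 0.02, -0.11 and 0.31 in the lean and at -0.02, -0.23 and 0.03 in the overfed pools (-0.15, SE 0.13, adjusted p = 0.869). Lum, for lumican, was at -0.22, 0.12 and -0.10 in the lean and at 0.01, -0.01 and 0.08 in the overfed pools (+0.09, SE 0.10, adjusted p = 0.902). Lumican was thus highest in lean pool 2, the pool in which Dcn was lowest.

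Among the glycoproteins Fn1, which encodes fibronectin, was at 0.02, -0.55 and 0.05 in the lean and at 0.91, -0.17 and -0.02 in the overfed pools (+0.40, SE 0.31, adjusted p = 0.848). Postn, for periostin, was at 0.65, -1.91 and 0.65 in the lean and at 0.40, -0.40 and -0.90 in the overfed pools (-0.10, SE 0.73, adjusted p = 0.986). Sparc, a collagen-binding protein, was at 0.04, -0.13 and 0.46 in the lean and at 0.31, -0.27 and -0.01 in the overfed pools (-0.11, SE 0.20, adjusted p = 0.946). Lean pool 2 was the lowest for Fn1 and Postn. Without it the Postn difference was -0.95, and without overfed pool 1 that of Fn1 was 0.0646. The elastic fibre genes moved little: Eln, for elastin, was at 0.0080, -0.06 and 0.18 in the lean and at -0.06, -0.19 and 0.13 in the overfed pools (-0.09, SE 0.11, adjusted p = 0.923). Fbn1, for fibrillin, was at -0.16, -0.18 and 0.14 in the lean and at 0.22, -0.21 and 0.28 in the overfed pools (+0.16, SE 0.16, adjusted p = 0.884). Both had their lowest value in overfed pool 2.

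Lists of genes around collagen showed no call either. Of the enzymes and chaperones of collagen synthesis and cross-linking, 23 of 31 were measured, 17 with a higher and 6 with a lower mean, 4 at an unadjusted p under 0.05 (all higher, against 7.18% of all genes in either direction), and a median difference of +0.117. Those of lowest p were the collagen galactosyltransferase Colgalt1 (+0.18, SE 0.07), the prolyl 3-hydroxylase P3h1 (+0.21, SE 0.08) and its relative P3h3 (+0.22, SE 0.09), with adjusted p between 0.648 and 0.669. In 6 of the 23 genes, these 3 among them, the pools did not overlap, against 13.4% of all genes. Of the collagen receptors 5 of 10 were measured, 3 higher and 2 lower, none at an unadjusted p under 0.05; the integrin Itga11 was at -0.36 (SE 0.22), Itga1 at +0.33 (SE 0.23) and the kinase receptor Ddr2 at +0.30 (SE 0.21). Of the laminins and other basement membrane genes 14 of 16 were measured, 7 higher and 7 lower, with 1 at an unadjusted p under 0.05 (against 7.18%), the laminin chain Lama4 (+0.22, SE 0.08), followed by Lamb1 (+0.23, SE 0.10) and Agrn (-0.14, SE 0.10). Of the other small leucine-rich proteoglycans 8 of 11 were measured, 5 higher and 3 lower; Chad (-0.25, SE 0.08) and Ecm2 (+0.27, SE 0.10) were at an unadjusted p under 0.05 (against 7.18%), followed by Omd (+0.37, SE 0.29). Of the TGF-beta ligands, receptors and matrix targets 14 of 16 were measured, 6 higher and 8 lower, none at an unadjusted p under 0.05; Smad2 was at +0.15, Tgfbr1 at +0.14 and the matrix target Ccn2 at -0.15.

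Markers of smooth muscle shared their highest and lowest pool with many fibrillar and type VI genes. All 12 were measured, 10 were highest in overfed pool 1, 11 lowest in lean pool 2 and 9 both. Their mean was 0.34, -0.78 and 0.54 in the lean and 0.78, -0.30 and -0.47 in the overfed pools. Beside them, the mean of the 5 beaded filament genes was 0.06, -0.60 and 0.25 in the lean and 0.83, -0.08 and -0.15 in the overfed pools. Homeobox genes of the reproductive tract, a list made after the values were seen, ran further: 7 of 8 measured had both extremes, and Hoxa10 was at 0.46, -3.18 and 1.23 in the lean and at 3.04, -0.46 and -2.57 in the overfed pools. Markers of stromal fibroblasts ran over less, with means from -0.21 in lean pool 2 to 0.22 in overfed pool 1 and both extremes in 3 of 12. The mean of the oviduct and ciliated epithelium markers was highest in lean pool 3 (0.75) and not in overfed pool 1 (-0.43). Of the 19 genes of this list 13 were measured. Of these 13 genes 9 were highest in lean pool 3, and the list was split in overfed pool 1. Rsph1 (-2.02) and Tekt2 (-1.90) were low there, while 2 genes, Hoxa9 (1.66) and Epcam (0.54), had their highest value there. Hoxa9 is in the homeobox list too. Between the diets, 12 of the 13 oviduct and ciliated markers had a lower mean in overfed ovaries (median -0.73). Of these 7 were at an unadjusted p under 0.05 (against 7.18%), and 7 did not overlap (against 13.4%). None passed the threshold in limma's test, where the lowest adjusted p was 0.529. Genes of a list can vary together, so these counts carry no test. Stromal fibroblast markers were higher in 11 of 12 (against 52.6% of all genes), with a median of +0.16 and 1 at an unadjusted p under 0.05 (against 7.18%). Adipocyte markers, 9 of 10 measured, were lower in 8 of 9 (median -0.40, 0 at an unadjusted p under 0.05), with 7 highest in lean pool 3. Smooth muscle markers were higher in 4 and lower in 8 (median -0.04). Granulosa, theca and luteal genes, 11 of 13 measured, were higher in 7 and lower in 4 (median +0.10), with 2 at an unadjusted p under 0.05 (against 7.18%). Endothelial genes, 9 of 10 measured, were higher in 3 and lower in 6 (median -0.003), with 0 at an unadjusted p under 0.05. In contrast to smooth muscle, 0 of 9 endothelial and 0 of 11 granulosa, theca and luteal genes were highest in overfed pool 1 or lowest in lean pool 2. The part of smooth muscle, tract tissue, fibroblasts or fat in the collagen values was not tested.

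**Figure D4:**
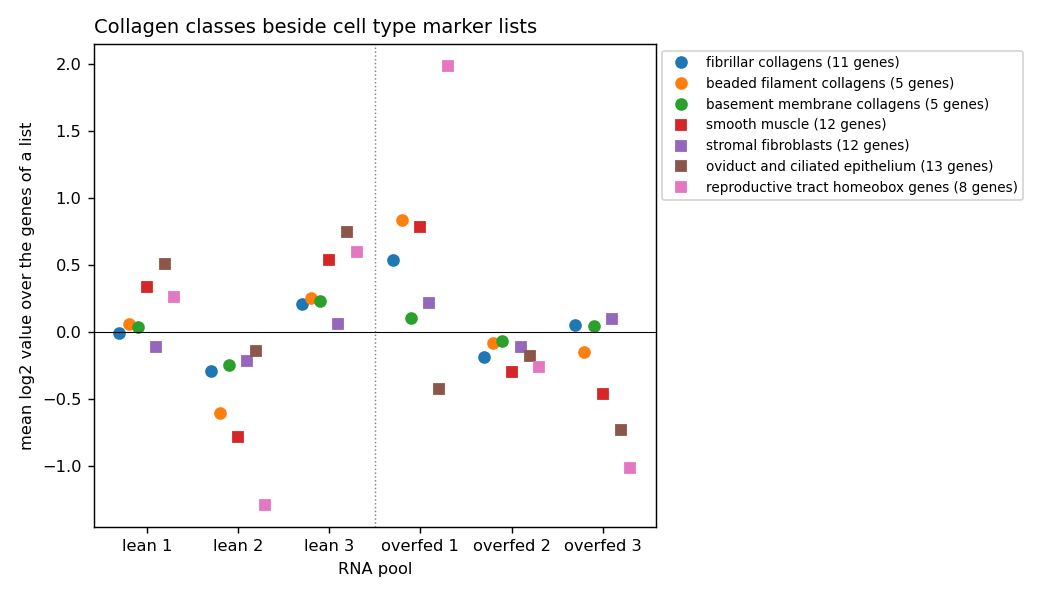
Mean relative log2 value (vertical axis) over the genes of 3 collagen classes (circles) and 4 marker lists (squares) in each RNA pool (horizontal axis). Beaded filament collagens (0.83), smooth muscle (0.78) and the tract homeobox genes (1.98) are all highest in overfed pool 1 and lowest in lean pool 2.

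Probe sets of 1 gene disagreed most in lean pool 3. Among the 17 members with several probe sets the gap was widest there in 8, and the median gap was 0.34, against 0.07 to 0.13 in the other pools. Over all 4525 genes with several probe sets the same pool held the widest gap in 35.4%. For Col6a2 the gap was 1.13, for Sparc 0.97 and for Col1a1 0.76. The centred values of the beta-actin probe sets differed between the 3′ and 5′ end by 0.36 in that pool and by at most 0.062 in either direction in the others. Because each probe set is centred, this is a departure from the typical pool and not a 3′ to 5′ signal difference. Values near 0 in the other pools therefore do not show intact RNA. A 3′ to 5′ signal difference is a measure of RNA integrity, and the centred values do not give it. The part of RNA integrity in these values was not tested. With both lean pool 3 and overfed pool 1 left out, the difference was -0.00225 for Col1a1 and -0.0698 for Col6a2, and 30 members were higher.

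**Figure D5:**
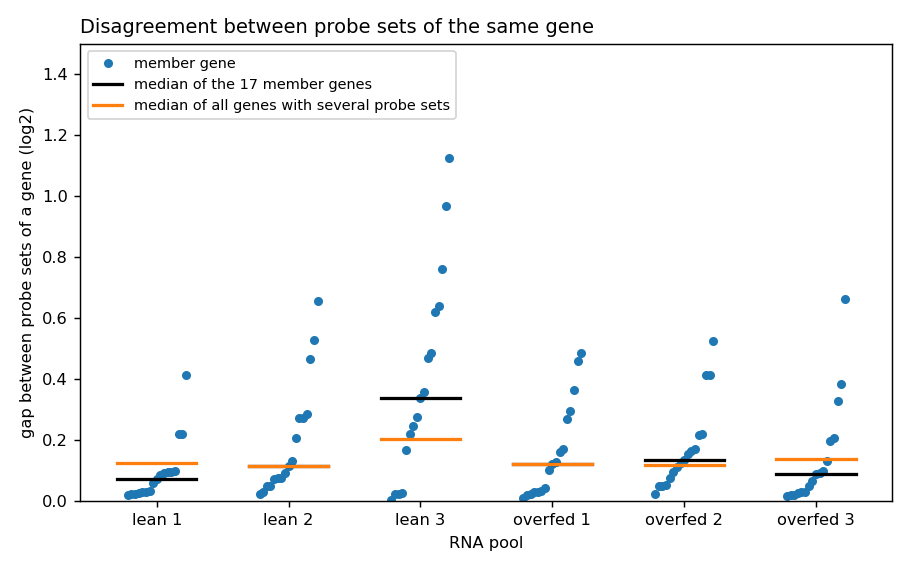
Gap between the highest and lowest probe set of a gene (vertical axis, log2) for the 17 members with several probe sets (points) in each pool (horizontal axis), with the median of these members (black) and of all 4525 such genes (orange). Lean pool 3 has the highest medians, 0.34 and 0.20.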

How the data were processed

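Whole-genome rat Affymetrix arrays were hybridized with biotin-labelled RNA, 1 array for each pool, per the labels' protocols. The deposited table holds 31099 probe sets in 6 columns of log2 values, each centred by the authors so that its median over the arrays is 0; the base was taken as 2, which the sources used here do not state, and with another base every fold would change. GCOS is named in the submitters' processing notes, without a version; summary method, normalization and filter: not given in the sources used here. Centring removes levels, so a filter on dim probe sets was not possible.

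The 57 array controls were left out. Of the remaining 31042 probe sets 20826 had 1 gene symbol in the platform annotation, 436 several and 9780 were unnamed here; probe sets of 1 symbol were averaged, giving 14217 genes. limma 3.58.1 (lmFit and eBayes, R 4.3.3) compared overfed with lean pools without a block, two-sided, with Benjamini-Hochberg adjustment over all genes and a threshold of 0.05; the procedure was tested on simulated data. The members and lists were chosen with earlier results of these data known. Text named every member, and gave pool values for the 2 members of lowest unadjusted p in each class, for 16 genes of a fixed list and for members singled out by their pattern, which were chosen after their values were seen. Of each neighbouring list the 3 genes of lowest p were named. Motifs were counted in RefSeq promoters (GRCr8). Fits were repeated with other normalizations, array weights, a robust prior, a replicate block, other probe set rules and without single pools.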

Additional observations from a re-analysis of the deposited data

How the results depend on the processing

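No gene or member was called in any of the 14 alternatives, and no probe set in those fitted to all probe sets (the other probe set rules change only gene values); the smallest adjusted p of a member was 0.324. Of the 50 members 22 kept their direction in all 14, while 28 did not (73 of 700 values). Arrays of 6 pools limit the precision, and signal over background is unknown. Leaving out single pools gave 1 to 3 members at an unadjusted p under 0.05 and 3 to 7 without overlap, which fewer pools make more frequent by construction; the calls besides Col6a6 were Col25a1 and Postn without lean pool 2, Col20a1 without lean pool 3, Col23a1 without overfed pool 1 and Col19a1 without overfed pool 2. The basement membrane median ran from -0.111 (without lean pool 2) to 0.148 (without overfed pool 3). Differences then ran from -0.316 to 0.412 for Col1a1, -0.0336 to 0.329 for Col3a1, -0.131 to 0.0182 for Col4a1, -0.371 to 0.0848 for Col4a2, -0.182 to 0.246 for Col4a6, -0.0738 to 0.381 for Col5a1, -0.482 to 0.022 for Col5a3, -0.233 to 0.497 for Col6a1, -0.369 to 0.375 for Col6a2, -0.536 to 0.411 for Col7a1, -0.138 to 0.325 for Col8a1, -0.285 to 0.16 for Col8a2, -0.134 to 0.103 for Col9a1, -0.0812 to 0.0492 for Col10a1, -0.104 to 0.477 for Col11a1, -0.279 to 0.124 for Col12a1, -0.447 to 0.127 for Col13a1, -0.0463 to 0.689 for Col14a1, -0.203 to 0.44 for Col15a1, -0.128 to 0.308 for Col16a1, -0.28 to 0.337 for Col18a1, -0.322 to 0.013 for Col23a1, -0.302 to 0.897 for Col24a1, -0.0397 to 0.057 for Col26a1, -0.241 to 0.0138 for Bgn, -0.039 to 0.287 for Dcn, -0.949 to 0.332 for Postn and -0.265 to 0.0544 for Sparc. Without lean pool 3 and overfed pool 1 together, 2 members were at an unadjusted p under 0.05 (Col20a1 and Col23a1) and 10 did not overlap, and the differences were -0.00225 for Col1a1, 0.0749 for Col4a2, -0.0426 for Col16a1, 0.0846 for Col9a1, -0.0698 for Col6a2, 0.0282 for Col10a1, -0.332 for Col7a1, 0.103 for Col8a2, -0.00791 for Col15a1, -0.155 for Col18a1 and 0.0173 for Bgn. Quantile normalization gave -0.0548 for Col1a1, -0.0706 for Col6a2, -0.0983 for Col7a1, -0.0104 for Col15a1 and -0.0174 for Col18a1. Array weights, lowest for overfed pool 1 (0.538) and lean pool 3 (0.614), gave -0.0629 for Col1a1, -0.00711 for Col4a6, 0.0245 for Col9a1, -0.0579 for Col6a2, -0.153 for Col7a1, -0.0531 for Col15a1 and -0.0619 for Col18a1. The probe set of largest SD gave -0.0269 for Col1a1 and -0.123 for Col4a6, and median centring -0.000194 for Col26a1. The cause of these changes was not tested.

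With the pool number as a replicate block, 0 members were called, 1 was at an unadjusted p under 0.05 and 31 were higher; the smallest adjusted p of a member was 0.861. The deviations of same-numbered pools correlated at 0.109, 0.153 and -0.375, so the numbers were not taken as pairs, and not every pool correlated best with its own number.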
